A study of Homo sapiens with 11 samples.

Results

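IRF7 and 2 probe sets of SP110 fell with nimesulide averaged over cisplatin status, while no probe set of IRF1, IRF2, IRF3, IRF9 or SP100 passed the test in any treatment comparison; with the replicate letter as a block, IRF9 and a further set of SP110 also passed. Levels on all 5 arrays with nimesulide lay below those on all 6 without it for IRF7 and IRF9. They did so for 3 of the 4 probe sets of SP110 and 2 of the 5 of SP100, against 0.360% of all probe sets. The gap ran from 0.41 log2 units for IRF7 down to 0.0023 for SP100 202863_at. The genes belong to a group of interferon transcription factors and interferon-inducible nuclear body proteins: IRF7, IRF1, IRF2, IRF3, IRF9, STAT2, SP110 and SP100. Every probe set that the platform annotation pairs with 1 of these symbols and no other was taken. This gave 14 of the 16383 probe sets, for 7 of the 8 listed genes and of 8549 genes in all: 1 each for IRF7, IRF1, IRF2, IRF3 and IRF9, 4 for SP110 and 5 for SP100. STAT2 was not analysed here, so no STAT stands among the measured genes.

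The cells were SCC9, an established line from a squamous carcinoma of the human tongue, grown in medium with fetal bovine serum. Control cells received neither drug (3 arrays, replicates A, B and C). The other cells received the DNA-crosslinking drug cisplatin at 0.5 µmol/L (3 arrays, A, B and C), or the cyclooxygenase inhibitor nimesulide at 100 µmol/L (3 arrays, A, B and C), or both at these doses, called the combination (2 arrays, A and B). The length of the treatment was not given in the sources used here, and all groups are of 1 cell line. The labels do not state that the arrays came from separate cultures, so a p-value here reflects spread among samples that may be technical.

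Interferon regulatory factors, or IRFs, bind DNA through a shared domain. IRF3 is made constitutively and IRF7 is itself interferon-inducible; both are activated by phosphorylation when nucleic acid sensors detect a virus, and both then switch on interferon genes. Secreted type I interferon makes its receptor assemble ISGF3, a complex that holds STAT2 and IRF9, which binds the interferon-stimulated response element and induces a large set of antiviral genes, IRF7 among them. IRF1 is an activator that interferon gamma induces, and IRF2 competes with it for the same sites. SP100 and SP110 are related interferon-inducible nuclear proteins; SP100 is a core component of the PML nuclear bodies.

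Levels are log2 intensities, summarised from the probes of each set by RMA, and a change is a difference of log2 levels; probe sets differ in how brightly they report, so a level set against other probe sets shows only whether the signal is bright or dim on the array, not how much RNA a gene makes. Markers of keratinocytes and squamous carcinoma were bright: 10 of 11 measured markers lay above the median of their array on all 11 arrays, the exception being KRT14 at 4.55 to 6.07, and their mean level was 8.28 to 8.62. Of the immune cell markers 1 of 12 did so, CD3E, and the list's mean level was 4.53 to 4.56 with nimesulide alone and 4.54 to 4.55 in controls. The general leukocyte marker PTPRC stood at 4.07 to 4.53. Of the markers of fibroblasts 1 of 8 (THY1) and of endothelium 0 of 5 lay above the median throughout. Arrays correlated over all probe sets at 0.996 to 0.998 within a treatment and at 0.995 to 0.998 between treatments. The cRNA made per array was 29.5 to 57.3 µg with nimesulide and 27.0 to 45.5 µg without. RNA concentrations were 0.70 to 1.42 µg/µL with nimesulide and 0.62 to 2.28 without. In letter A they were 1.59 (control), 1.42 (cisplatin), 1.42 (nimesulide) and 1.12 (combination). In letter B they were 1.90 (control), 2.28 (cisplatin), 0.89 (nimesulide) and 0.70 (combination). In letter C they were 0.62 (control), 0.69 (cisplatin) and 0.85 (nimesulide). Whether cRNA yield or RNA concentration bears on the values was not tested. In bulk RNA, fewer cells that express a gene and less of its RNA per cell cannot be told apart.

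IRF7, the inducible amplifier of the type I interferon response, was measured by probe set 208436_s_at. Its level was 8.44, 8.64 and 8.56 in controls A, B and C and 8.52, 8.57 and 8.51 with cisplatin. With nimesulide it was 7.91, 8.02 and 7.88, and with the combination 8.03 and 8.0 in A and B. The 5 arrays with nimesulide spanned 7.88 to 8.03 and the 6 arrays without it 8.44 to 8.64, so the groups were separated by 0.41 log2 units, a gap wider than the range of either group. The means were 8.55 ± 0.10 (SD, n = 3) in controls, 8.53 ± 0.03 (n = 3) with cisplatin, 7.94 ± 0.07 (n = 3) with nimesulide and 8.01 ± 0.02 (n = 2) with the combination.

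IRF7 fell with nimesulide alone by 0.61 log2 units (SE 0.07, limma adjusted p = 0.00727), to 65.6% of the control level. It was the only probe set called in that comparison, so 1 of the 14 was called against 0.00610% of all 16383. Added to cisplatin, nimesulide gave a change of -0.52 (SE 0.08, limma adjusted p = 0.0779), and no probe set of the table was called (the called share was 0%, with 1162 at an unadjusted p under 0.05). With the replicate letter as a block this comparison gave IRF7 an adjusted p of 0.0100. With that block 4 of the 14 were called for nimesulide against control (IRF7 and 3 sets of SP110) and 3 for the combination against cisplatin (IRF7 and 2 sets of SP110), all lower; in each of these comparisons 0.226% of all probe sets were called and 0.177% called lower. The IRF7 call against control was lost on omission of the control arrays of letters B and C or the nimesulide arrays of letters A and C, one at a time, with adjusted p up to 0.103. Averaged over cells without and with cisplatin, the nimesulide change of IRF7 was -0.56 (SE 0.05, 95% interval -0.67 to -0.45, limma adjusted p = 0.000554), which ranked 1 of 16383 by p and held with each of the 11 arrays left out. Within the letters, nimesulide minus control was -0.53, -0.62 and -0.68 in A, B and C, and combination minus cisplatin was -0.49 and -0.57 in A and B. The nimesulide change was 0.09 smaller in size with cisplatin than without (interaction 0.09, 95% interval -0.13 to 0.31, adjusted p = 0.965).

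**Figure D1:**
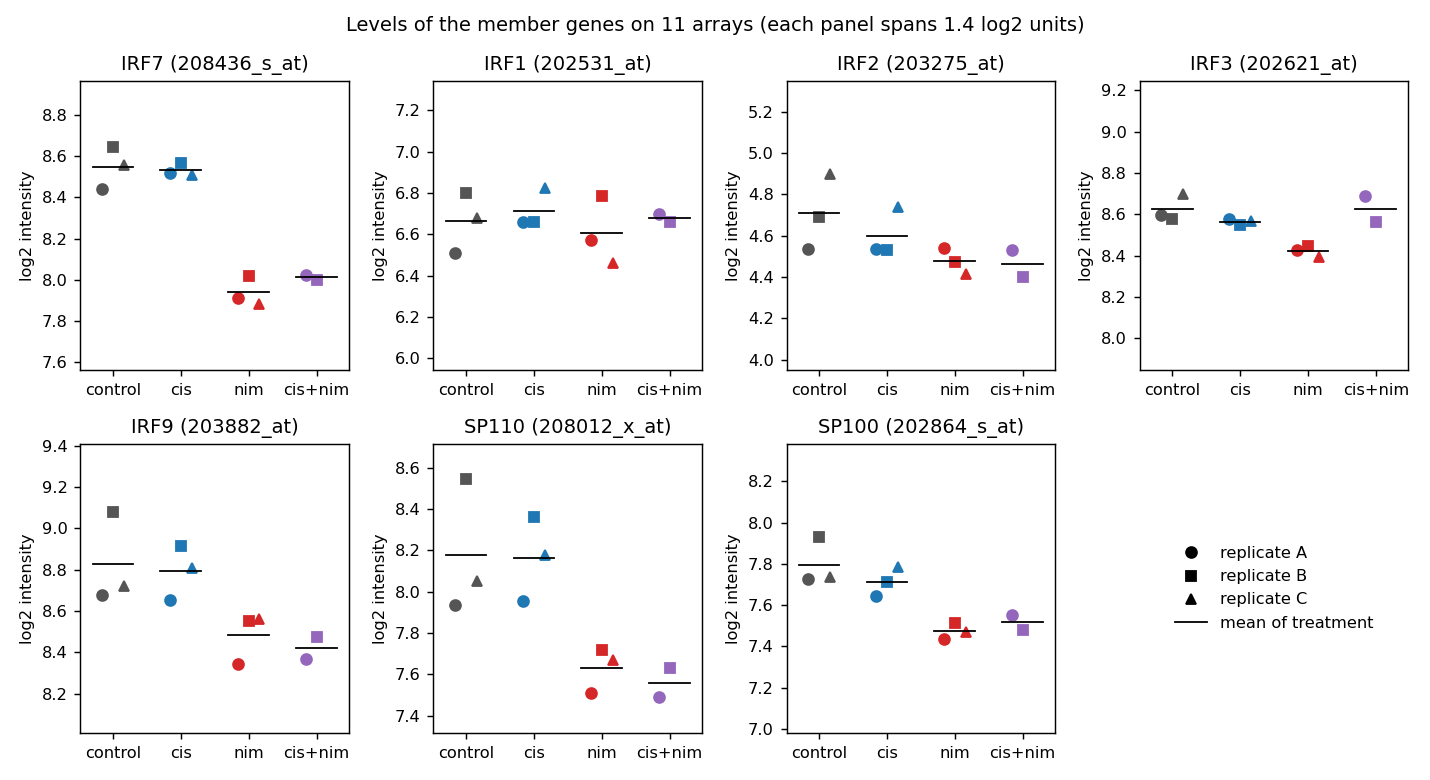
Log2 level of each measured gene on each array, by treatment, with replicate letters marked and a bar at the mean of each group; 1 probe set is shown per gene. The 5 IRF7 points with nimesulide lie between 7.88 and 8.03, below all 6 without it at 8.44 to 8.64.

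The single agents differed in the same direction: IRF7 was lower with nimesulide than with cisplatin by 0.59 on the log2 scale (change -0.59, SE 0.07, limma adjusted p = 0.00998), again the only probe set called (0.00610% of all). That call was lost without cisplatin B, cisplatin C, nimesulide A or nimesulide C (adjusted p up to 0.0929). With the letter as a block 4 of the 14 were called lower, against 0.262% called and 0.232% called lower of all. The combination against control gave IRF7 a change of -0.53 (limma adjusted p = 0.0962, and 0.0068 with the letter as a block). No probe set was called there without the block (a share of 0%, with 1295 at an unadjusted p under 0.05), and with it 4 of the 14 were called lower, against 0.201% called and 0.146% called lower of all. These comparisons share arrays with those above.

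IRF3, the constitutive partner of IRF7 in virus sensing, was read by 202621_at. Its level was 8.60, 8.58 and 8.70 in controls, 8.58, 8.55 and 8.57 with cisplatin, 8.43, 8.44 and 8.39 with nimesulide, and 8.69 and 8.56 with the combination. The nimesulide arrays lay below the control arrays, but the combination arrays lay among those without nimesulide. Nimesulide against control gave -0.20 (SE 0.06, limma adjusted p = 0.827), and the average over cisplatin status gave -0.07 (95% interval -0.17 to 0.03).

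IRF1 (202531_at) was 6.51, 6.80 and 6.68 in controls, 6.66, 6.66 and 6.83 with cisplatin, 6.57, 6.79 and 6.46 with nimesulide and 6.70 and 6.66 with the combination, so all 4 groups overlapped. Its average nimesulide change was -0.05 (95% interval -0.20 to 0.10), an interval that does not reach the change of IRF7. IRF2 (203275_at), the competitor of IRF1, was dim, with 34.4% of all probe sets dimmer. It measured 4.53, 4.69 and 4.90 in controls, 4.53, 4.53 and 4.74 with cisplatin, 4.54, 4.47 and 4.41 with nimesulide and 4.53 and 4.40 with the combination. Its average nimesulide change was -0.18 (SE 0.07, limma adjusted p = 0.558). Within letters IRF2 moved by 0.01 in A, by -0.22 in B and by -0.49 in C for nimesulide minus control.

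IRF9, the DNA-binding subunit of ISGF3, was read by 203882_at. The control arrays gave 8.68, 9.08 and 8.72 in A, B and C and the cisplatin arrays 8.66, 8.91 and 8.81. The nimesulide arrays gave 8.34, 8.55 and 8.56 and the combination arrays 8.37 and 8.48. All 5 arrays with nimesulide were below all 6 without it, with a gap of 0.09 between them. The average nimesulide change was -0.36 (SE 0.08, limma adjusted p = 0.133), which does not pass the threshold of 0.05; with the letter as a block the adjusted p was 0.0116. Within letters it was -0.34, -0.52 and -0.16 for nimesulide minus control and -0.29 and -0.44 for combination minus cisplatin.

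SP110, an interferon-inducible nuclear protein, had 4 probe sets, which correlated with each other at 0.747 to 0.956 over the 11 arrays; they share arrays and transcripts and are not replicates. The suffix x_at marks sets whose probes may also match other transcripts. The brightest, 208012_x_at, was 7.93, 8.54 and 8.05 in controls, 7.95, 8.36 and 8.18 with cisplatin, 7.51, 7.72 and 7.67 with nimesulide, and 7.49 and 7.63 with the combination. The arrays with nimesulide were again all below those without, by 0.22, although controls alone ranged over more than that gap. Its average nimesulide change was -0.57 (SE 0.10, limma adjusted p = 0.0472), a call that was lost for 8 of the 11 arrays when 1 was left out (control C, cisplatin B and C, all nimesulide and both combination arrays, adjusted p up to 0.299). That of 209762_x_at was -0.67 (SE 0.09, limma adjusted p = 0.00884), its levels being 7.82 to 8.27 without and 7.22 to 7.59 with nimesulide; without combination A its adjusted p was 0.165. The other 2 sets were not called: 209761_s_at changed by -0.60 (adjusted p = 0.0983, 0.00105 with the block) and the dimmer 208392_x_at by -0.26 (adjusted p = 0.286, 0.0532 with the block). For 209761_s_at the gap between arrays without and with nimesulide was only 0.029.

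SP100, the PML body component, had 5 probe sets, of which 202864_s_at was brightest. It measured 7.73, 7.93 and 7.74 in controls, 7.64, 7.71 and 7.79 with cisplatin, 7.43, 7.51 and 7.47 with nimesulide, and 7.55 and 7.48 with the combination. The arrays with nimesulide lay below those without by 0.09 for 202864_s_at and by only 0.0023 for 202863_at. The average nimesulide change of 202864_s_at was -0.26 (SE 0.05, limma adjusted p = 0.0983), and that of 202863_at was -0.28 (SE 0.08, adjusted p = 0.369). Neither was called, with or without the block. The remaining 3 sets were dim and changed by -0.08, 0.04 and 0.01. They correlated with the other SP100 sets at -0.164 to 0.735, against 0.813 between the bright pair.

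Counted together, 3 of the 14 probe sets were called lower with nimesulide averaged over cisplatin status, those of IRF7 and 2 of SP110, and none was called higher; 0.153% of all 16383 probe sets were called in either direction and 0.122% were called lower. With the letter as a block 5 of the 14 were called lower, adding IRF9 and SP110 209761_s_at, against 0.360% called lower and 0.525% called of all. All 5 arrays with nimesulide lay below all 6 without it for 7 of the 14 probe sets, from IRF7, IRF9, SP110 and SP100, against 0.360% of all probe sets. Taken separately, the nimesulide arrays lay below the control arrays for 9 of the 14 (4.91% of all), and the combination arrays below the cisplatin arrays for 8 of the 14 (9.73% of all). All 5 within-letter nimesulide differences were below 0 for 8 of the 14, from 4 genes, against 3.34%. Probe sets of 1 gene share transcripts, and the members were chosen with earlier results of these data known, so these counts are descriptions. The 14 changes ran from -0.67 to 0.04 with a median of -0.26, beside a median of 0.00069 over all probe sets.

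**Figure D2:**
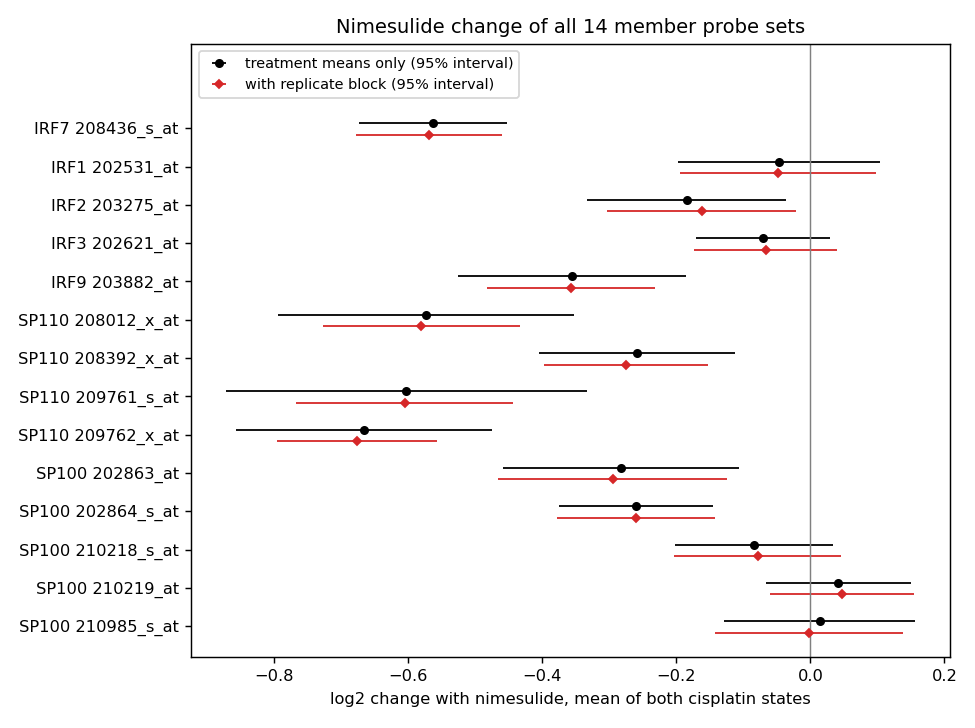
Change with nimesulide averaged over cisplatin status, in log2 units, for each of the 14 probe sets, with 95% intervals from the fit without and with the replicate letter as a block. IRF7 and the brighter SP110 sets lie near -0.6, IRF9 at -0.36, and IRF1 at -0.05.

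Cisplatin gave no call for any of the 14 probe sets, alone (smallest adjusted p = 0.968), added to nimesulide (0.717) or averaged over nimesulide status (0.730). Over all probe sets 0% were called in each of these limma comparisons, with 761, 1113 and 1128 at an unadjusted p under 0.05, and the block also gave 0. Averaged over nimesulide status, the cisplatin change of IRF7 was 0.03 (95% interval -0.08 to 0.14), that of IRF9 -0.05 (95% interval -0.22 to 0.12) and that of SP110 208012_x_at -0.04 (95% interval -0.26 to 0.18).

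For 2 of the 4 probe sets of SP110, levels differed between replicate letters A and B. With treatment in the model, letter B exceeded letter A by 0.44 for SP110 209761_s_at (SE 0.09, limma adjusted p = 0.022) and by 0.30 for 209762_x_at (SE 0.06, adjusted p = 0.032), so 2 of the 14 were called against 1.14% of all probe sets. The other SP110 sets were not called: the brightest, 208012_x_at, differed by 0.34 (SE 0.08, limma adjusted p = 0.0537) and 208392_x_at by 0.15 (SE 0.06, adjusted p = 0.359). For IRF9 the difference was 0.24 (SE 0.07, adjusted p = 0.111) and for IRF7 0.08 (SE 0.06, adjusted p = 0.626). No member was called for C minus A (0.0916% of all called) or C minus B (0.140%). Letter B arrays had 28.9 to 57.3 µg of cRNA and letter A arrays 27.5 to 32.9 µg; its part in the difference was not tested. The residual SD of 209762_x_at was 0.18 without and 0.08 with the letter in the model, and that of IRF7 0.07 and 0.06.

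**Figure D3:**
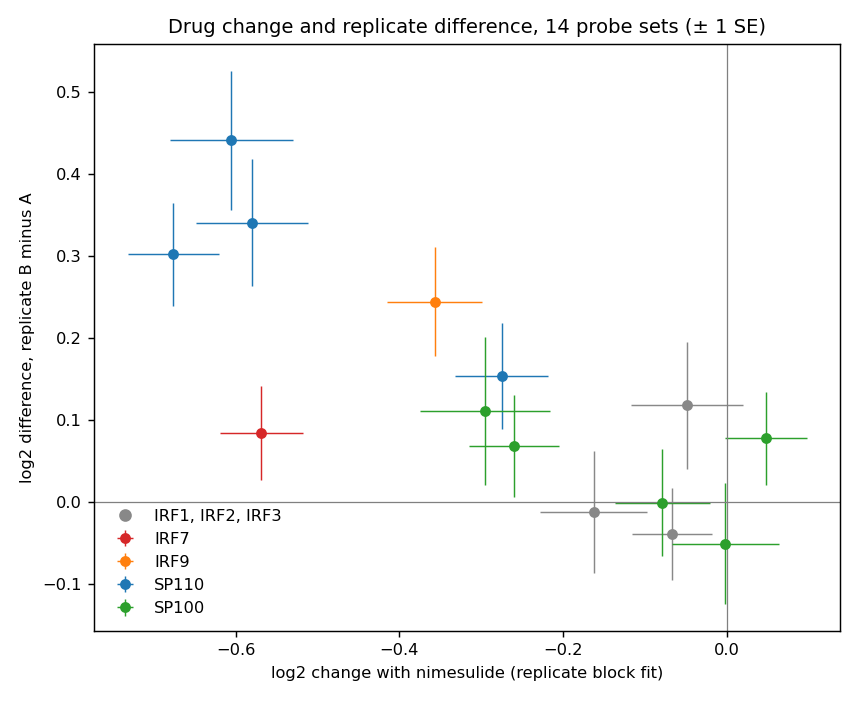
For each probe set, the difference between letters B and A plotted against the average nimesulide change, both in log2 units from the model with treatment and letter, with bars of 1 SE. The SP110 sets reach 0.44 on the letter axis, and IRF7 lies at 0.08.

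The change of IRF7 was set against that of each relative by taking, on each array, the level of IRF7 minus that of the relative and comparing the 5 arrays with nimesulide with the 6 without by a two-sided exact permutation test. There are 462 assignments of the arrays when the replicate letter is ignored, as it was here, so the smallest p is 0.00216. The 6 tests were adjusted by Benjamini-Hochberg, and IRF7 was singled out with earlier results of these data known. IRF7 fell more than IRF1, by a difference of -0.52 (exact p = 0.00216, adjusted 0.00433). The difference was -0.48 for IRF3 (exact p = 0.00216, adjusted 0.00433), -0.39 for IRF2 (exact p = 0.00433, adjusted 0.00649) and -0.31 for SP100 (exact p = 0.00216, adjusted 0.00433). For IRF9 it was -0.22 (exact p = 0.0173, adjusted 0.0208), with arrays of the 2 groups overlapping. Against these 5 relatives the difference was below 0 in all 5 within-letter comparisons. IRF2 was dim, with 34.4% of all probe sets dimmer, and whether its low signal made its change smaller was not tested.

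IRF7 was tested against the brightest SP110 set and against the mean of its 4 sets, and neither test passed the threshold. IRF7 minus SP110 208012_x_at changed by -0.0037 (exact p = 0.981), and within letters by -0.10, 0.20 and -0.29 for nimesulide minus control and by -0.03 and 0.16 for combination minus cisplatin. The sign therefore turned in letter B, where SP110 changed by -0.83 and -0.73. The other SP110 sets were not tested singly against IRF7; beside the -0.56 of IRF7, their average nimesulide changes were -0.67 for 209762_x_at, -0.60 for 209761_s_at and -0.26 for 208392_x_at. IRF7 against SP110 as the mean of its 4 sets gave -0.0553 (exact p = 0.526). This does not show that both genes change alike, since the letters spread over 0.20 to -0.29.

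**Figure D4:**
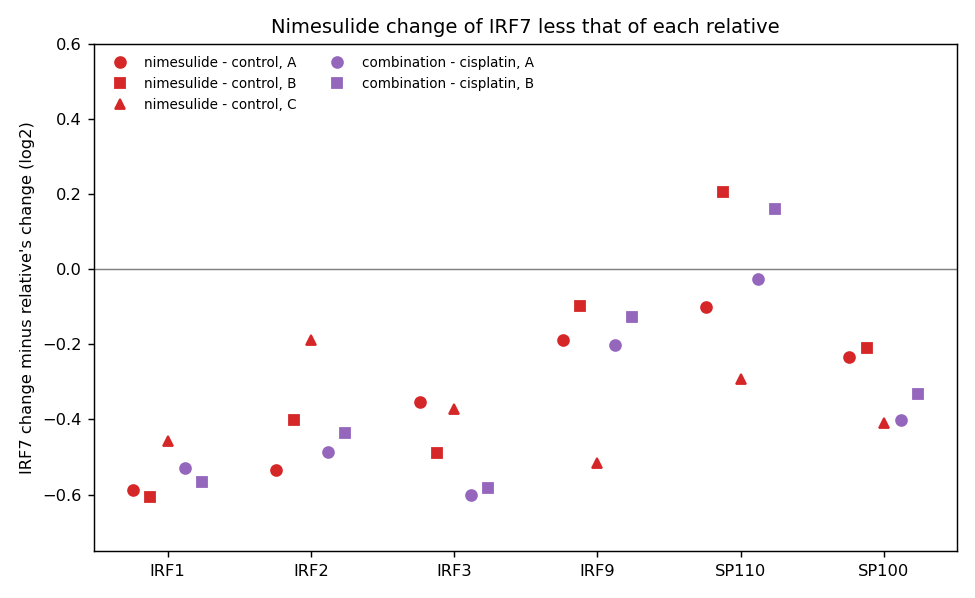
Change of IRF7 minus change of each relative with nimesulide, in log2 units; points are the 5 within-letter differences, 3 of nimesulide minus control and 2 of combination minus cisplatin. All points lie below 0 for the relatives other than SP110, whose points run from -0.29 to 0.20.

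Promoter sequences show what the start regions of these genes hold. RefSeq promoters on GRCh38.p14 were matched for 4 of the 7 genes, with 6 promoters: IRF1, IRF9, and 2 each for SP110 and SP100. The 250 bases before each start were searched on both strands for 3 motifs. The core of the element that ISGF3 binds is GAAA, any 2 bases and GAAA; TTCNNNGAA is the site of STAT dimers and its own reverse complement; and AANNGAAA is a shorter IRF core, which every match to the first motif contains. The windows below hold every match in these promoters, written 5′ to 3′ along the gene with the matches in capitals.

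SP110 promoter 1, chr2:230225706-230225760, minus strand: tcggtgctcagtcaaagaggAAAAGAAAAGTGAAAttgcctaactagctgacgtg
SP110 promoter 2, chr2:230219994-230220055, minus strand: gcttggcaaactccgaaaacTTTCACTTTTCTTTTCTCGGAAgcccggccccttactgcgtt
SP100 promoter 1, chr2:230416117-230416164, plus strand: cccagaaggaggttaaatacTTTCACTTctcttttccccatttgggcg
IRF9 promoter, chr14:24161182-24161257, plus strand: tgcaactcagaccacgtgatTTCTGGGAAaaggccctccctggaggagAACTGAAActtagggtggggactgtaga
IRF1 promoter, chr5:132490869-132490917, minus strand: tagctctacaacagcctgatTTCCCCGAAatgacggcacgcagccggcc

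The longer ISGF3 core was in 0 of the 6 promoters, against 3.02% of the 35116 promoters of the table. AANNGAAA was in 4 of the 6, both of SP110, 1 of SP100 and that of IRF9, against 20.3% of all. TTCNNNGAA was in 3 of the 6, those of IRF1, IRF9 and the second of SP110, where it overlaps the shorter core, against 6.57% of all. The second SP100 promoter held no match. A match is a description of letters and not a binding site.

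Among all 8549 genes, those whose levels ran most like IRF7 over the 11 arrays were ISG15, a ubiquitin-like protein (Pearson r 0.965), IFITM1, a membrane restriction factor (0.939), IFIT1, which binds viral RNA (0.934), IFI27 (0.927) and SP100 (0.926). The arrays share treatments and letters, so these are descriptions. With treatment means removed, the 5 nearest to IRF7 were ADO (0.951), ADAMTS2 (0.942), MIA3 (0.940), OAS2 (0.935) and PLAUR (0.934), of which only OAS2 is a gene of the lists below. With letter means removed they were IFI35, BST2, ISG15, IFIT1 and IFI44, at 0.972 to 0.991.

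IRF9 ran most like SP110 (0.990), then OAS1, IFIT1, BST2 and IFI44L (0.947 to 0.964). SP110 ran most like IRF9, then IFIT1, OAS1, IFI44L and IFI44 (0.965 to 0.983). SP100 ran most like H2BC15 (0.927), IRF7, SP110, ISG15 and PLSCR1. IRF1 had other neighbours over the 11 arrays: ELL2 (0.877), RBM12 (0.817), HLA-F (0.804), SRPX2 (0.792) and ANAPC13 (0.790). Its correlation with IRF7 was 0.394 over the 11 arrays and 0.815 with treatment means removed. With those means removed, IRF7 correlated at 0.724 with SP110, 0.654 with SP100, 0.644 with IRF9, 0.295 with IRF2 and 0.133 with IRF3.

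The other genes of the pathway were counted by role, with nimesulide averaged over cisplatin status. Over all 8549 genes 4132 were higher and 4417 lower with a median of -0.0032, and 4 were called higher and 15 lower. With the block 19 of all genes were called higher and 45 lower. Of 25 interferon receptor and signalling genes 11 were higher and 14 lower (median -0.02), and 1 was called, IFI35, which binds the STAT partner NMI (-0.55, SE 0.09, limma adjusted p = 0.0233). The receptor kinases JAK1 and TYK2 changed by -0.01 and -0.06 and were not called. Of 18 genes of nucleic acid sensing and IRF activation 7 were higher and 11 lower (median -0.03) with none called; with the block, TRIM21 (-0.34, adjusted p = 0.0235) and the RNA-activated kinase EIF2AK2 (-0.34, adjusted p = 0.0284) were called lower.

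Of the 14 interferon genes themselves 11 were higher and 3 lower (median 0.03) with none called. Apart from IFNA17 at 6.21, their mean levels were 3.02 to 4.22, below every array median (5.37 to 5.43). Probe sets this dim can hardly show a fall, so these values do not tell whether interferon RNA changed. The other IRF family list had 4 measured genes and none called: IRF8 changed by 0.05, IRF5 by -0.02, IRF4 by -0.0015 and the IRF2 cofactor IRF2BP1 by -0.04. Of 9 genes of PML nuclear bodies 5 were higher and 4 lower (median 0.03) and none was called; PML, which organises the bodies, changed by -0.18 (adjusted p = 0.553) and the chromatin remodeller ATRX by 0.12 (adjusted p = 0.661).

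All 19 measured targets of ISGF3 and IRF7 had lower values, with a median of -0.65. Of these 8 were called lower, against 15 of all 8549 genes. With the block 17 were called lower, against 45 of all genes. The 8 were IFITM1 (-0.51), ISG15 (-0.63), IFIT1 (-0.55), IFI27 (-0.58), IFI44L (-1.57), the death ligand TNFSF10 (-0.96) and the antiviral GTPases MX1 (-0.94) and MX2 (-0.92). The lists were drawn up with earlier results of these data known, so their counts are descriptions.

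**Figure D5:**
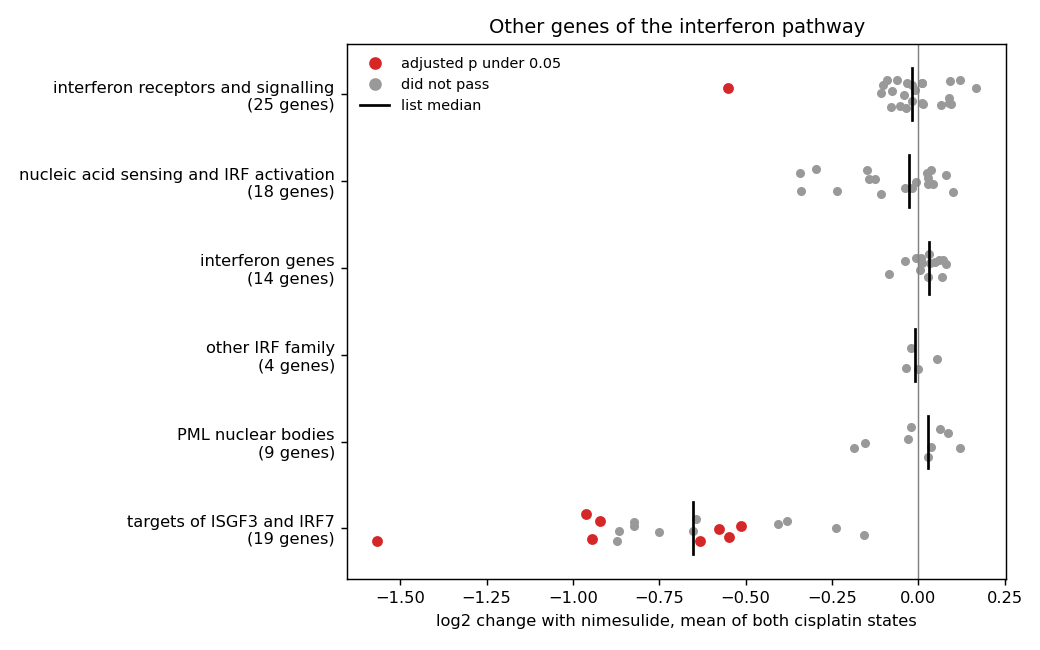
Nimesulide change averaged over cisplatin status, in log2 units, for each measured gene of 6 pathway lists, in red where the adjusted p was under 0.05, with a bar at the list's median. The 19 targets of ISGF3 and IRF7 all lie below 0 around a median of -0.65, while the medians of the other lists lie between -0.03 and 0.03.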

How the data were processed

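Each of 11 Affymetrix U133A arrays has deposited log2 intensities for its probe sets, which the authors made with RMA, per the submitters' processing notes and the labels; the log2 scale was judged from values of 2.53 to 13.4. RMA equalises the arrays, which hides any shift common to all transcripts, and the number of arrays limits the precision. Its version was not given in the sources used here. Of 16383 probe sets, 14045 had 1 gene symbol, 792 several and 1546 none; a gene was represented by its probe set with the highest mean level, giving 8549 genes.

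The model, fitted with limma 3.58.1 (R 4.3.3), gave each treatment its own mean and used the 11 arrays together (7 residual degrees of freedom). Tests were two-sided, adjusted by Benjamini-Hochberg over all probe sets within each of 9 contrasts and called at an adjusted p under 0.05; the code was tested on simulated data. The deposited protocol speaks of sets A, B and C. After removal of treatment means, arrays of the same letter correlated at 0.0831 to 0.355 and those of different letters at -0.251 to 0.0342 (without the combination). Without the combination, every same-letter pair thus correlated above every different-letter pair. For pairs with the combination the ranges overlapped, at 0.0883 to 0.210 and -0.210 to 0.144, the 0.144 being nimesulide C with combination B. Letter C has no combination array. With 2 combination arrays, removing their mean leaves values of equal size and opposite sign, so their correlations are not independent of each other. The sources used here do not state outright that a letter is a shared culture, so the letter is not a proven pairing. A fit with the letter as a block (5 degrees of freedom) is given where it changes a call. Alternatives were other normalizations, a filter on dim probe sets, moderation with trend, subsets of arrays and leaving out each array. All probe sets of the member genes are named, with the 5 genes most correlated with a member, and called genes of the pathway lists; JAK1, TYK2, ATRX and the single members of the IRF family list were named after their values were seen. One further pathway list is not reported here. The members and lists were chosen with earlier results of these data known. The shorter IRF core was added after the promoters were read.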

Additional observations from a re-analysis of the deposited data

Results flagged for a closer look

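IRF3 moved in opposite directions with nimesulide in cells without and with cisplatin. Nimesulide minus control was -0.17, -0.13 and -0.30 in letters A, B and C, and combination minus cisplatin was 0.11 and 0.02 in A and B. The difference between these effects was 0.26 (SE 0.09) and was not called by limma (adjusted p = 0.963 over all probe sets). Opposite signs in every letter occurred in 913 of the 16383 probe sets (5.57%), and 748 had an interaction p under 0.05, so IRF3 is 1 of many.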

How the results depend on the processing

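The count of the 14 probe sets called lower with nimesulide depended on how the replicate letter and single arrays were treated. For nimesulide against control it was 1, against 4 with the replicate block, 0 with letters A and B only and 0 with only the arrays compared; the block without letter A, B or C gave 3, 0 and 0. For the combination against cisplatin it was 0, against 3 with the replicate block, 1 with quantile normalization, 1 with trend and robust moderation, and 2 and 1 with the block without letter A or C. Averaged over cisplatin it was 3, against 5 with the replicate block, 0 with letters A and B only, and 5 with the block without letter C. For the combination against control it was 0, against 4 with the replicate block, 2 with trend and robust moderation, and 3 and 1 with the block without letter A or C. For nimesulide against cisplatin it was 1, against 4 with the replicate block, 0 with letters A and B only, 0 with only the arrays compared, and 3 and 0 with the block without letter A or C. The fits that drop a letter were chosen after seeing the data. The share of all probe sets called is given above only for the fits without and with the full block. For the other settings the counts do not tell a change in the members from a change in calls over all probe sets. Leaving out 1 array gave 0 to 1, 0 to 1, 1 to 4 and 0 to 1 for nimesulide against control, the combination against cisplatin, the average and nimesulide against cisplatin. The IRF7 call against control was lost without control B, control C, nimesulide A or nimesulide C (adjusted p 0.0655 to 0.103), and against cisplatin without cisplatin B or C or nimesulide A or C. Averaged over cisplatin, IRF7 changed by -0.54 to -0.62 and lost its call only with letters A and B alone (adjusted p = 0.150), while SP110 208012_x_at lost its call in 8 of 11 single-array omissions (adjusted p 0.0209 to 0.299) and 209762_x_at lost it without combination A (0.165), where the lone combination array is assumed to vary like the others. Other normalizations moved member changes by at most 0.06.

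IRF7 minus its relatives was recomputed with fewer arrays. With nimesulide and control only (smallest p 0.10), it was -0.55 for IRF1, -0.37 for IRF2, -0.40 for IRF3, -0.27 for IRF9 and -0.28 for SP100, none past the threshold. With combination and cisplatin only (smallest p 0.10), it was -0.48, -0.38, -0.58, -0.15 and -0.32, and IRF7 against SP110 gave 0.0844, the opposite sign of its -0.0037, which ran from -0.0575 to 0.0351 when 1 array was left out. These small designs cannot pass the threshold, so they say nothing about stability.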
